A study of Papio hamadryas with 14 samples.

Results

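The comparison described here sets whole kidney of the fetal baboon (Papio hamadryas) at 125 days of gestation, 125dG, against the same organ at 90 days, 90dG. The arrays were chosen by the stage in their titles, with all genes kept in view, which gave 3 arrays at 90dG and 3 at 125dG, 6 of the 11 fetal arrays and of the 14 arrays in the series. The series also holds kidneys at 60dG (2 arrays) and 160dG (3 arrays), used below to place the change in time, and adult kidneys, which were not used here. No treatment or genetic change is named for any group, all groups were handled by one extraction and labelling protocol, the replicates are called biological, and neither the sex of the fetuses nor pooling is given. Human Affymetrix arrays of 1 type served all 11 fetal samples, and a gene is read here through the 1 probe set with its highest mean signal. The question of the comparison is which genes differ between these successive stages.

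The primate kidney adds new nephrons through much of fetal life. At its outer rim, progenitor cells of the cap mesenchyme either renew themselves or are induced by the branching ureteric bud to form an epithelial vesicle, which then matures into podocytes, proximal tubule, loop of Henle and distal tubule, while stromal cells lie between these structures and secrete matrix. Progenitor renewal, branching and mitosis belong to the young organ, and transport and filtration genes to the maturing one.

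The arrays carried the markers of kidney. Of 15 kidney markers listed, 13 had a probe set and 12 of these were above the filter described below, and their summed signal was 10734 to 12033 at 90dG and 11946 to 12164 at 125dG. Signals of the Y-linked gene RPS4Y1 were 5455, 5562 and 4323 at 90dG and 4711, 5104 and 3930.4 at 125dG, and those of XIST, the RNA of the silenced X chromosome, stayed between 50.4 and 83.7 on these 6 arrays. The groups therefore did not differ in the pattern of RPS4Y1 and XIST. Other Y-linked genes were mixed. UTY was called higher at 125dG, but over the fetal arrays its probe set did not follow RPS4Y1 and XIST, as given below. DDX3Y, under the filter, had signals of 90.5 to 135.2 at 90dG and 153.6 to 238.8 at 125dG. The signals of EIF1AY, TMSB4Y, USP9Y and ZFY, also under the filter, overlapped between the stages.

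90dG replicates 2 and 3 stood apart from every other fetal array in their control probe sets. The control for GAPDH reads the 3′ and the 5′ end of its transcript, and the ratio of these signals was 1.78 on 90dG replicate 1, 2.46 on replicate 2 and 3.43 on replicate 3, against 1.62 to 1.99 on the 8 arrays of the other stages. The same ratio for ACTB was 1.25, 1.93 and 3.03, against 0.85 to 1.50. Replicate 1 was inside the range of the other stages for both ratios, but its 9 spike-in probe sets had a geometric mean signal of 942, against 1786 and 2184 on the other 90dG arrays and at least 2248 on the other stages. The part of these differences in the results below was not tested, and results are therefore given with all arrays and with 90dG replicate 1 as the only 90dG array, in a fit that assumes that this lone array varies like the others.

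**Figure D1:**
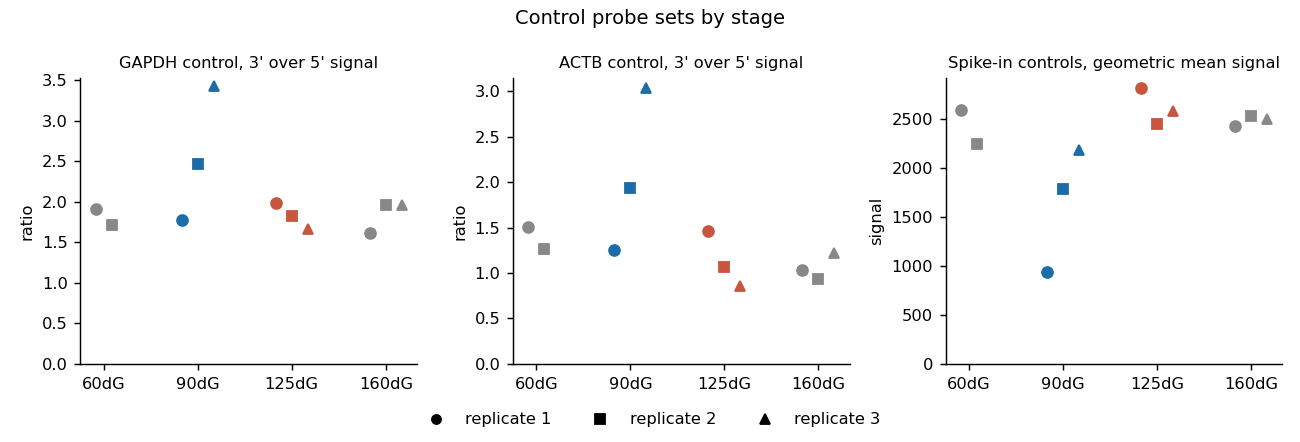
Control probe sets on each fetal array, with the GAPDH and ACTB ratio of 3′ to 5′ signal and the geometric mean signal of 9 spike-in probe sets on linear axes from 0. Each symbol is 1 array; 90dG replicates 2 and 3 have the highest ratios (2.46 and 3.43 for GAPDH) and 90dG replicate 1 the lowest spike-in signal (942).

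Of 5278 genes tested, 273 differed between 90dG and 125dG (5.17%; limma, adjusted p under 0.05). At 125dG 135 genes were higher (2.56% of those tested) and 138 were lower (2.61%). At least a 2-fold change was seen in 47 of the higher and 26 of the lower genes, and the median difference over all genes tested was -0.02 on the log2 scale. Differences are given throughout as 125dG minus 90dG in log2(signal + 16), ± the SE of the fit, with 3 arrays at each stage; the number of arrays limits the precision. The arrays of both stages did not overlap in 134 of the 135 higher and all 138 lower genes, while no overlap was found in 28.1% of all genes, 12.1% upward and 16% downward. An unadjusted p under 0.05 in limma was reached by 1261 of the 5278 genes, 584 higher and 677 lower. The unadjusted counts given for single lists below are to be read beside this share, and are no calls.

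The number of calls moved with single arrays, while the median size of the differences moved less. Leaving out 1 of the 90dG arrays gave 441 calls (replicate 1), 126 (replicate 2) or 44 (replicate 3), and leaving out 1 of the 125dG arrays gave 63, 151 or 34. With 90dG replicate 1 alone 32 genes were called (0.606% of those tested), 24 higher and 8 lower, and with the GAPDH ratio as a covariate 33 (0.625%). The median difference of the 135 higher genes was 0.91 with all arrays and 0.81 against 90dG replicate 1 alone, and that of the 138 lower genes -0.75 and -0.71. These genes were called with replicate 1 included, so the second value in each pair describes size and is no separate test.

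Among the genes called higher, 90dG replicate 3 was the array farthest from the 125dG mean in 49.6%, and among those called lower in 52.9%, against 42.1% of all genes. The signal fell from replicate 1 through replicate 2 to replicate 3, the order in which both 3′ to 5′ ratios rose, in 44 of the 135 higher genes (32.6%; 18.6% of all genes). It rose in that order in 41 of the 138 lower genes (29.7%; 23.2% of all genes). EXOC5, with the largest rise, was among the 44.

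Where the arrays of both stages do not overlap, leaving out 1 array cannot change the sign. This covers 134 higher and all 138 lower genes, so their constant signs are no test. In the 6 fits that left out 1 array of these stages, a call held every time for 12 higher and 11 lower genes only. The lower ones were AFP, HBE1, HMGA2, DKK1, NME4, MIF, UXT, TUBA1C, TIMM8B, RPL8 and PPIA. The higher ones were NFE2L2, TIA1, DNAH3, RCOR3, GRB14, UTY, MAP4K5, RPS6KA5, WWTR1, ANKRD12, WASHC4 and DNAJC10. Each of the other 250 calls was lost in at least 1 of these fits. Of the 273 calls, 212 were kept without 90dG replicate 1, 111 without replicate 2 and 44 without replicate 3, and 59, 128 and 34 without 125dG replicates 1, 2 and 3. With 90dG replicate 1 as the only 90dG array, the calls kept were those of HBE1, HMGA2, UXT, UBE2C, TUBA1C, TUBB4B, RPL27 and RPS18 among lower genes and of PNISR, MBNL1, PPIG, TIA1, CALB1 and GRB14 among higher genes.

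The 60dG and 160dG arrays, which share no array with this comparison, place the change in time. The 60dG arrays differed in sex-linked signals. XIST was 4589.4 on 60dG replicate 1 and 138.7 on replicate 2, against 50.2 to 92.2 at 160dG, and RPS4Y1 differed between the 60dG arrays too, as given below. The part of this difference in the patterns over the 4 stages was not tested. For 99 of the 135 higher genes all 3 90dG arrays lay below all 8 other fetal arrays (73.3%; 5.25% of all genes), and for 94 of the 138 lower genes they lay above all 8 (68.1%; 6.57% of all genes). A step that lasted, with every 125dG and 160dG array beyond every 60dG and 90dG array, was found in 30 higher genes (22.2%; 2.22% of all genes) and 64 lower genes (46.4%; 3.9% of all genes). Both patterns held for 15 higher and 29 lower genes, and neither for 21 and 9. The 4 stage means rose in order of age in 6 higher genes (4.44%; 7.58% of all genes) and fell in order in 15 lower genes (10.9%; 7.31% of all genes). Since every member was called on the 90dG and 125dG arrays, these shares describe the 273 genes and are not read as evidence of either pattern in the kidney at large.

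From 60dG to 160dG, 116 of the 138 lower genes also had a negative difference (84.1%; 50.8% of all genes), and 39 were called lower there (28.3%; 4.72% of all genes). Of the 135 higher genes 81 had a positive difference over that span (60%; 49.2% of all genes) and 15 were called higher (11.1%; 6.92% of all genes). Calls in the other direction were 4 among the lower and 3 among the higher genes. The median difference from 60dG to 160dG was -0.39 for the lower genes and 0.11 for the higher genes, against -0.01 for all genes.

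**Figure D2:**
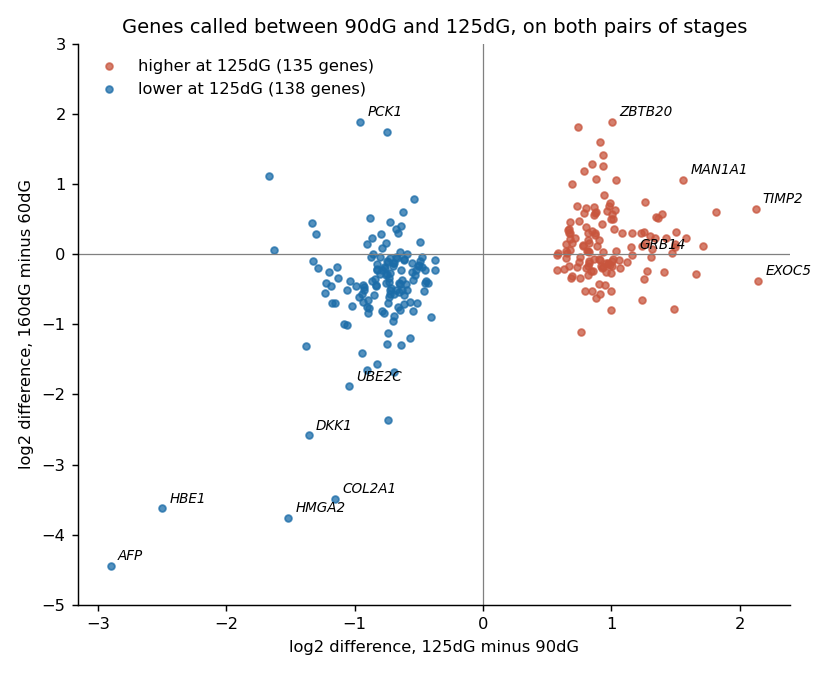
Log2 difference from 90dG to 125dG (horizontal) against that from 60dG to 160dG (vertical) for the 135 genes called higher and the 138 called lower, 1 point per gene. Lower genes reach far down on the vertical axis (AFP at -2.90 and -4.45), whereas higher genes lie around 0 on it (median 0.11).

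The largest falls were in genes of embryonic and early fetal plasma and blood. AFP, alpha-fetoprotein, the main plasma protein of the yolk sac and fetal liver, had signals of 3724, 3637 and 3263 at 90dG and 969.7, 237 and 415 at 125dG. All 3 90dG arrays lay above all 8 other fetal arrays, those of 60dG included, so AFP was highest at 90dG. The 60dG arrays in turn lay above every 125dG and 160dG array. Of the 125dG arrays replicate 1 was the highest. AFP fell by 2.90 ± 0.39 (limma, adjusted p = 0.00401) and was 117, 58.3 and 88.3 at 160dG; over the 6 fits that left out 1 array the difference stayed between -3.43 and -2.45.

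HBE1 encodes the embryonic epsilon globin chain, which primitive red cells carry. Its signals were 2221, 1144 and 1633 at 90dG and 399, 182 and 271 at 125dG, with no overlap, and its 60dG signals of 1127 and 2500.4 bracketed those at 90dG. The fall was 2.50 ± 0.32 (limma, adjusted p = 0.00285), and against 90dG replicate 1 alone it was -2.96. The adult beta chain gene HBB had a difference of 0.34 ± 0.20 (limma, adjusted p = 0.328), and further probe sets were at -0.40 and -0.01.

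Other plasma protein genes were lower as well. Of 4 tested members of the liver and yolk sac list 3 were lower (75%, against 2.61% of all genes), with a median of -1.08. They were AFP, APOA1, the main protein of high-density lipoprotein (-1.23 ± 0.27), and the protease inhibitor SERPINA1 (-0.94 ± 0.24). Leaving out 1 array gave 1 to 3 lower calls. With no filter 2 of 24 members were called lower, and the median was -0.43. High 90dG signals count towards passing the filter. APOA1 was also highest at 90dG, where its arrays lay above all 8 other fetal arrays, and a further APOA1 probe set was called at -1.75. Over all 24 list members with a probe set the summed signal was 6444.5 to 7129.6 at 90dG and 2435 to 2842 at 125dG, and without AFP it was 3042 to 3405 and 1819 to 2428. The signal of albumin, ALB, was 53.0 to 106.4 and 24.0 to 37.4, below the filter. APOM, a carrier protein of lipoproteins that kidney tubules also make, went from 1197, 1276 and 1445 to 647, 515 and 392, but its 60dG signals were 357 and 516, below those at 90dG. Fewer cells of a type and less RNA per cell cannot be told apart in whole organ RNA, and the part of blood or liver RNA in these signals was not tested.

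The erythroid list held 7 tested genes, of which 1, HBE1, was called lower (14.3%, against 2.61% of all genes). Its 17 members with a probe set summed to 3865 to 5346 at 90dG and 2776 to 3006 at 125dG, and without HBE1 to 2721 to 3549 and 2504 to 2647. The embryonic zeta globin HBZ, under the filter, went from 104.5 to 320.0 at 90dG to 6.50 to 39.2 at 125dG. Of the other members under the filter, CA1, KLF1 and ALAS2 were also lower without overlap. GATA1 went the other way without overlap, from 26.6 to 36.9 at 90dG to 57.7 to 111.9 at 125dG. The signals of AHSP, ANK1, HBD, SLC4A1 and SPTB overlapped.

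HMGA2, a chromatin protein of proliferating embryonic cells, gave the smallest p of the comparison. Its signals were 1969.5, 2375 and 2346 at 90dG and 777, 725 and 799.7 at 125dG, tight within each stage, and the fall was 1.52 ± 0.16 (limma, adjusted p = 0.000663). The stage means formed a descending series, with 60dG at 5496 and 4817 and 160dG at 380.2, 418 and 307, and the difference stayed between -1.60 and -1.47 over the 6 fits that left out 1 array. The imprinted gene MEST was also lower, from 11396, 10945 and 11534 to 7515, 5638 and 7151 (-0.75 ± 0.17; limma, adjusted p = 0.0263); its call held in 1 of the 6 fits.

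IGF2BP3, an RNA-binding protein that stabilises fetal growth transcripts, had non-overlapping signals of 361, 383 and 407 and 261, 277 and 147 but missed the threshold (-0.75 ± 0.23; limma, adjusted p = 0.0734). In the oncofetal and imprinted list 2 of 16 tested genes were lower (12.5%, against 2.61% of all genes) and none higher, with a median of -0.23. The IGF signalling list had 0 calls in 11 genes (5 with an unadjusted p under 0.05 in limma) and a median of 0.21, or -0.04 without 90dG replicate 1. IGFBP4, which binds and restrains IGFs, had the largest difference (0.68 ± 0.20; limma, adjusted p = 0.0641).

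**Figure D3:**
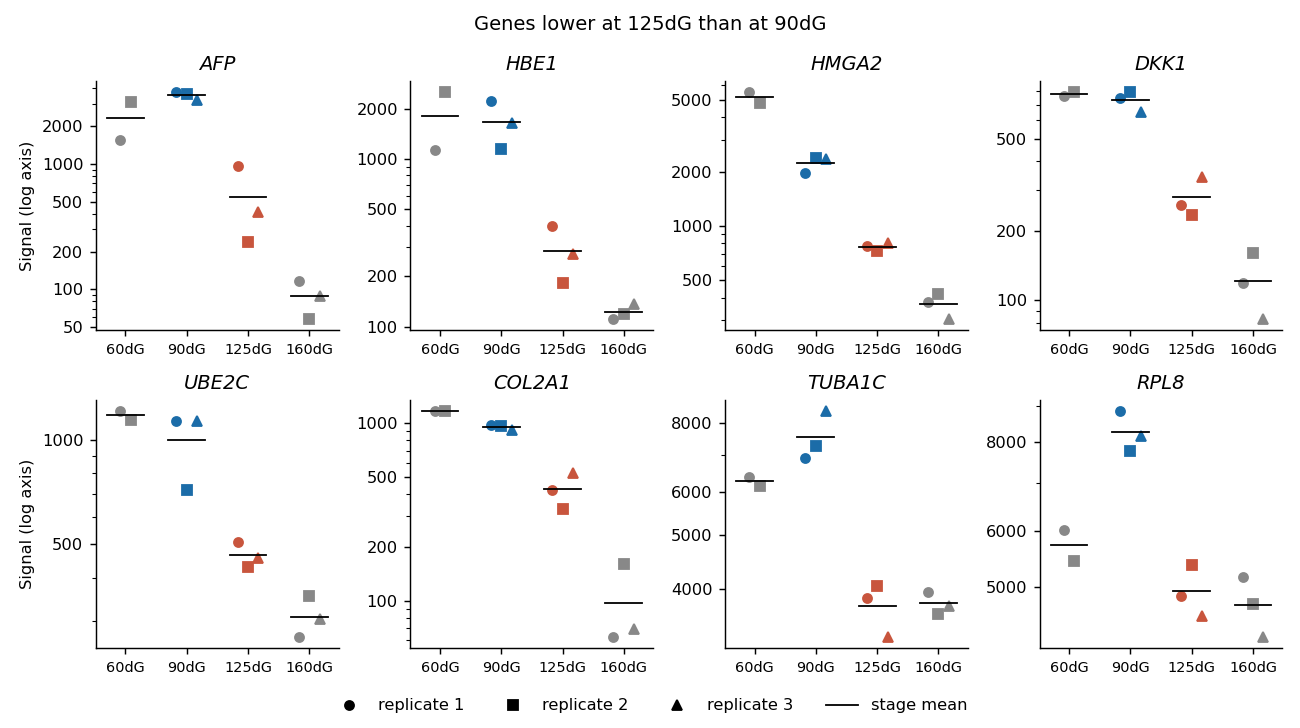
Signal on each fetal array, on log axes, of 8 genes lower at 125dG than at 90dG; symbols are replicates and bars stage means. AFP, HBE1, HMGA2, DKK1, UBE2C and COL2A1 continue down to 160dG, while RPL8 is highest at 90dG (7785 to 8859.8) and lower at every other stage.

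Nephron progenitor genes gave 2 calls among 10 tested, EYA1 and the collagen gene COL2A1. Both were lower (20%, against 2.61% of all genes), and the list median was -0.19. Without 90dG replicate 2 or 3, or without 125dG replicate 1 or 3, 0 were called lower, and the median ranged from -0.29 to -0.05 over the 6 fits. EYA1, a phosphatase and cofactor of SIX2 and its relatives that keeps the cap mesenchyme in being, had signals of 264, 395 and 312 at 90dG and 136, 187 and 170.3 at 125dG. The arrays did not overlap, and the fall was 0.91 ± 0.22 (limma, adjusted p = 0.0315), against -0.65 with 90dG replicate 1 alone; the call held in 2 of the 6 fits that left out 1 array. SIX2, the marker of self-renewing progenitors, was under the filter with signals of 182, 212 and 143 at 90dG and 98.9, 106 and 129 at 125dG, also without overlap.

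COL2A1, a fibrillar collagen best known from cartilage and placed in the progenitor list as well, went from 973, 959 and 917 to 418, 331 and 527. The stages did not overlap, and the fall was 1.15 ± 0.27 (limma, adjusted p = 0.0282); a further probe set was called at -0.88. Its call held in 1 of the 6 fits that left out 1 array, though the difference stayed between -1.31 and -0.99. The cartilage list had 15 members with a probe set, 4 of them above the filter. Of these 4, 3 had a negative and 1 a positive difference, and COL2A1 was the only call. Without COL2A1 the summed signal of the list was 1779 to 2380 at 90dG and 1506 to 1766 at 125dG, without overlap. SOX9, above the filter, was also lower without overlap, with signals of 635.2 to 766.6 at 90dG and 416.2 to 547.1 at 125dG. COMP and MATN4, under the filter, were lower without overlap too. The signals of the remaining members overlapped between the stages, and some were low at both. ACAN had signals of 31.1 to 108.1 at 90dG and 15.6 to 107.9 at 125dG, COL9A1 of 10.7 to 25.0 and 8.10 to 12.5.

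MYCN and WT1, which act in progenitor growth and in the step to epithelium, did not pass. MYCN had signals of 468, 635 and 702 and 524, 389.7 and 279, which overlapped (-0.60 ± 0.25; limma, adjusted p = 0.165). WT1 was low on 2 of the 90dG arrays only: its signals were 1197, 457 and 445 at 90dG and 1183, 1000.4 and 1143 at 125dG, and the difference of 0.81 ± 0.29 (limma, adjusted p = 0.111) became -0.11 with 90dG replicate 1 alone, and a further probe set was at -0.27.

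DKK1, a secreted antagonist of Wnt signalling, was the only call among 24 tested Wnt pathway genes (4.17% lower, against 2.61% of all genes). It had signals of 751, 793 and 653 at 90dG and 259, 234 and 343 at 125dG, while 60dG was 763 and 793 and 160dG 118, 160.0 and 83.2. The level was thus near that of 60dG at 90dG and stepped down afterwards, by 1.36 ± 0.22 between the stages compared (limma, adjusted p = 0.01). Early nephron and Notch genes had 0 calls among 11 in limma, 4 of them with an unadjusted p under 0.05, with JAG1, a Notch ligand, at 0.73 ± 0.24 (limma, adjusted p = 0.0904) and SOX9 at -0.56 ± 0.23 (limma, adjusted p = 0.149). Further probe sets were at 0.11 and -0.13 for JAG1 and at 0.18 for SOX9.

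In the ureteric bud list 1 of 11 tested genes was called, lower (9.09%, against 2.61% of all genes). The list median of -0.49 lay well under the -0.02 of all genes. The homeobox gene EMX2, needed for the bud to branch, went from 2910.1, 2343 and 3212 to 1705, 1905 and 1563 (-0.70 ± 0.18; limma, adjusted p = 0.0439), and its 60dG arrays at 1672 and 1365 were also below those of 90dG. SPRY1, which restrains the RET signal, had 726, 912 and 906 and 608, 503 and 578 and just missed the threshold (-0.57 ± 0.16; limma, adjusted p = 0.0519). GATA3, a factor of the bud lineage, was at -0.50 ± 0.16 (limma, adjusted p = 0.0796). The median of this list was -0.36 with 90dG replicate 1 alone and -0.31 with quantile normalization. With quantile normalization 0 genes of the list were called, and the EMX2 call held in 1 of the 6 fits that left out 1 array.

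Mitosis and spindle genes gave 4 calls among 19, all lower (21.1%, against 2.61% of all genes), with a median of -0.37. UBE2C, the ubiquitin-conjugating enzyme of the anaphase-promoting complex, had signals of 1133, 719 and 1135 at 90dG and 509, 431 and 458 at 125dG. The arrays did not overlap, the fall was 1.04 ± 0.19 (limma, adjusted p = 0.0137), and with 90dG replicate 1 alone the gene was called at -1.26. NUSAP1 and PRC1, which bundle spindle microtubules, were lower by 0.83 ± 0.19 and 0.74 ± 0.20, and PTTG1, securin, by 0.69 ± 0.18.

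Cyclin B2, CCNB2, had non-overlapping signals of 661, 922 and 587 and 416, 404 and 428 but missed the threshold (limma, adjusted p = 0.0708). MKI67, the proliferation marker, had overlapping signals of 269, 164 and 146 and 187, 182 and 181. The condensin subunit SMC4 pointed the other way (0.97 ± 0.27; limma, adjusted p = 0.0523), although it fell from 60dG to 160dG by 1.51 ± 0.30. In 8 of the 19 genes every 125dG and 160dG array lay below every 60dG and 90dG array, against 3.9% of all genes, and in none did the 90dG arrays lie above all 8 others. The 4 calls were lost with 125dG replicate 3 or 90dG replicate 3 left out, and the list median ranged from -0.55 to -0.16 over the 6 fits.

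Of 26 DNA replication genes 1 was lower (3.85%, against 2.61% of all genes), the cyclin-dependent kinase CDK4 (-0.63 ± 0.16, limma, adjusted p = 0.0419). None of the 6 fits that left out 1 array kept that call. The median of that list was -0.13.

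An alpha and a beta tubulin gene were lower; they are outside the naming rule and are named after their values were seen. TUBA1C had signals of 6926, 7283 and 8420.4 at 90dG and 3845, 4038 and 3266 at 125dG, and fell by 1.02 ± 0.12 (limma, adjusted p = 0.00231), by 0.90 with 90dG replicate 1 alone. TUBB4B went from 5291, 3650.4 and 4477 to 2557, 2494 and 2077 (-0.90 ± 0.16; limma, adjusted p = 0.0137). A further probe set of each was called in the same direction, at -0.93 and -0.73. These probe sets have a name ending that marks possible sharing among tubulin transcripts, so the member of the family is uncertain.

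Stromal genes had 3 lower calls among 18 (16.7%, against 2.61% of all genes), with a median of -0.19. Leaving out 1 array gave 0 to 4 lower calls, 0 without 90dG replicate 3 or 125dG replicate 1 and 1 without 125dG replicate 3, and medians of -0.26 to -0.05. COL1A1 and COL1A2, the chains of type I collagen, went from 17394, 14917 and 19174 to 9047, 10429 and 11828 and from 12508, 11054 and 12408 to 8248, 8589 and 7611. Neither gene overlapped between the stages, and the falls were 0.72 ± 0.13 (limma, adjusted p = 0.0137) and 0.56 ± 0.12 (limma, adjusted p = 0.0206). Of the further COL1A1 probe sets one was called at -1.17 and another was at 0.93 and not called, and that of COL1A2 was at -0.68 and not called. LGALS1, the matrix-binding galectin-1, had more scattered signals of 946, 715 and 1333 and 336, 570.3 and 245 (-1.38 ± 0.29; limma, adjusted p = 0.02).

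The signals of COL1A1 were 11921 and 10260.1 at 60dG and 8612, 7306 and 7889.6 at 160dG, all below those at 90dG. The collagen chaperone SERPINH1 was lower at 125dG too (-0.66 ± 0.14; limma, adjusted p = 0.0216). The lysyl hydroxylase PLOD2, which modifies collagen for cross-linking, was higher (0.96 ± 0.23; limma, adjusted p = 0.0332). In all, the list of fibrillar collagens and their processing had 4 lower and 1 higher call in 22 genes. The shares were 18.2% and 4.55%, against 2.61% and 2.56% of all genes. The list median was -0.22, or -0.24 with 90dG replicate 1 alone. Leaving out 1 array gave 0 to 4 lower and 0 to 2 higher calls. The calls of COL1A1 and COL1A2 count in the stromal list as well, and that of COL2A1 in the progenitor and cartilage lists. The shares of these lists are therefore not separate results. Basement membrane genes had 0 calls in 14 and the other matrix glycoproteins and proteoglycans 0 in 30 (4 and 5 with an unadjusted p under 0.05 in limma).

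SFRP1, a secreted Wnt-binding protein of the stroma, depended on the probe set. The one used had signals of 889, 688 and 1085 and 1698, 2362 and 1079 and missed the threshold (0.89 ± 0.26; limma, adjusted p = 0.0646), whereas the other SFRP1 probe sets were called higher at 2.08 (limma over all probe sets, adjusted p = 0.00339) and 1.68 (adjusted p = 0.0107). The fit over all probe sets above the filter, from which the values of further probe sets are taken, called 6.77% of them. Of the higher genes 59 had a further probe set above the filter. In 46 all of these were also positive, and in 10 at least 1 was called higher. Of the lower genes 31 had one. In 22 all were negative, and in 12 at least 1 was called lower. PNN, named after its values were seen, was called lower at -0.49, but its further probe sets were called higher, at 0.87 and 0.61.

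TIMP2, which inhibits matrix metalloproteinases and takes part in activating MMP2, had signals of 288, 54.0 and 112 at 90dG and 628, 449 and 739 at 125dG. All 125dG arrays were higher, and the 90dG arrays spread widely, with replicate 2 the lowest. The rise was 2.12 ± 0.39 (limma, adjusted p = 0.0137), 1.00 with 90dG replicate 1 alone, and the call was lost without 90dG replicate 3 or 125dG replicate 3. TIMP3, which binds matrix, was higher by 0.97 ± 0.24, or 0.42 with 90dG replicate 1 alone, and TIMP1 was lower by 0.54 ± 0.14 (limma, adjusted p = 0.0456). A further TIMP3 probe set was at 0.36 and not called. The TIMP3 call held in 1 and the TIMP1 call in 0 of the 6 fits that left out 1 array.

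**Figure D4:**
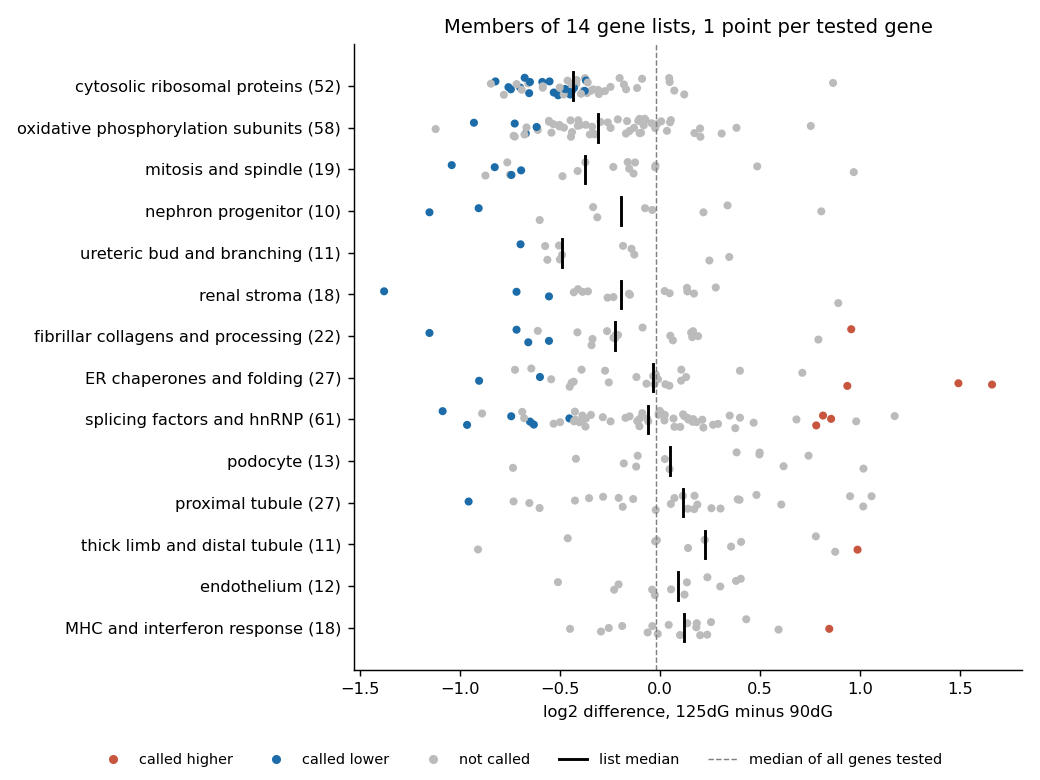
Log2 difference of every tested member of 14 gene lists, with called genes coloured, the list median as a black bar and the median of all genes tested (-0.02) as a dashed line; the number of tested genes stands in brackets. Ribosomal proteins (17 lower calls in 52) and oxidative phosphorylation subunits lie left of the dashed line, and nephron segment lists lie around it.

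Cytosolic ribosomal proteins made up the largest group of lower genes among the 47 lists: 17 of 52 tested were called lower (32.7%, against 2.61% of all genes) and none higher, with a median of -0.44. RPL8 had signals of 8859.8, 7785 and 8157 at 90dG and 4856, 5372 and 4553 at 125dG, fell by 0.75 ± 0.12 (limma, adjusted p = 0.01) and was the 1 ribosomal gene whose call held in all 6 fits that left out 1 array. RPL27 went from 14449.6, 10606 and 11104 to 6802, 7839.5 and 6577 (-0.76 ± 0.14; limma, adjusted p = 0.0137). The 17 falls were small, 0.37 to 0.82.

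Ribosomal protein signals were highest at 90dG. In 26 of the 52 genes all 3 90dG arrays lay above all 8 other fetal arrays, against 6.57% of all genes, and in 9 the fall was a lasting step. Relative to the 125dG mean, the list median was 0.52 on 90dG replicate 1, 0.35 on replicate 2 and 0.50 on replicate 3, and 0.28 and 0.18 on the 60dG arrays. Replicate 1 had 3′ to 5′ ratios within the range of the other stages but the lowest spike-in signal of the fetal arrays. The part of these control differences in the ribosomal values was not tested. Calls numbered 2 to 12 over the 6 fits that left out 1 array and 2, RPL27 and RPS18, with 90dG replicate 1 alone. With quantile normalization the median was -0.16 and 1 gene was called, so the size of this difference depends on the scaling.

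Translation factors had 1 lower (EIF3L, -0.83 ± 0.15) and 1 higher (EIF3A, 0.88 ± 0.17) call in 35 genes and a median of 0.00, and both shares of calls (2.86%) were near those of all genes. Both genes encode subunits of initiation factor 3. Further EIF3A probe sets were at 0.80 and 0.00 and not called.

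Oxidative phosphorylation subunits had 4 lower calls in 58 (6.9%, against 2.61% of all genes) and none higher, with a median of -0.31. ATP5F1E, the epsilon subunit of ATP synthase, went from 1369, 1509.5 and 1579 to 794, 865 and 666 (-0.93 ± 0.20; limma, adjusted p = 0.023), and the others were the ATP synthase subunits ATP5MC1 and ATP5MC2 and the complex III core protein UQCRC1 (-0.67 ± 0.16). From 60dG to 160dG the list median was 0.08. Leaving out 1 array gave 0 to 8 lower calls, and with 90dG replicate 1 alone there were none.

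Of 28 proteasome subunits 1 was lower (3.57%, against 2.61% of all genes), with a list median of -0.23. It was the ATPase PSMC4 (-1.18 ± 0.27, limma, adjusted p = 0.0268). The mitochondrial cochaperonin HSPE1 was the only call in 22 cytosolic and mitochondrial heat shock genes (4.55% lower, against 2.61% of all genes). HSPE1 went from 1906, 2874 and 1662 to 993, 1003 and 735 (-1.20 ± 0.27, limma, adjusted p = 0.0268). NME4, a nucleoside diphosphate kinase of mitochondria, had signals of 643, 638 and 630.2 at 90dG and 301, 202 and 240.4 at 125dG. The 90dG arrays were nearly equal, and the fall of 1.32 ± 0.18 (limma, adjusted p = 0.00401) held in all 6 fits that left out 1 array. At 60dG NME4 was at 319 and 424 and at 160dG at 359.5, 363 and 313, so the 90dG arrays were above all 8 others.

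Other large falls were in genes outside the lists. MSRB1, a selenoprotein that repairs oxidised methionine, went from 1027, 1441 and 1426 to 806, 373 and 199 (-1.67 ± 0.42; limma, adjusted p = 0.0405), with 60dG at 358 and 228. SEMA4G, a semaphorin, went from 391, 407 and 482 to 110.1, 93.1 and 193 (-1.63 ± 0.32; limma, adjusted p = 0.0167). RARRES2, which encodes the chemoattractant chemerin, fell by 1.30 ± 0.27, and POLR2F, a subunit shared by RNA polymerases, by 1.23 ± 0.29. MRPS11, of the mitochondrial ribosome, fell by 1.29 ± 0.33. None of these 5 calls held in all 6 fits that left out 1 array.

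MIF, a cytokine with tautomerase activity, and UXT, a prefoldin-like chaperone, are named after their values were seen because their calls held in all 6 of those fits. MIF had signals of 4979, 5138 and 5712 at 90dG and 2596, 2501 and 1924 at 125dG (-1.18 ± 0.19; limma, adjusted p = 0.01). UXT had 1479.5, 1209 and 1164 and 618, 616 and 494 (-1.13 ± 0.17; limma, adjusted p = 0.00906), with -1.34 when 90dG replicate 1 stood alone.

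Protein folding genes of the endoplasmic reticulum had 3 higher and 2 lower calls in 27 (11.1% and 7.41%, against 2.56% and 2.61% of all genes) and a median of -0.03. In 5 of the 27 all 90dG arrays lay below all 8 other fetal arrays, against 5.25% of all genes. DNAJC10, a reductase that helps degrade misfolded proteins, had signals of 245, 205 and 84.1 at 90dG and 628, 513 and 517 at 125dG. The rise was 1.66 ± 0.28 (limma, adjusted p = 0.01), 1.12 with 90dG replicate 1 alone, and the 60dG arrays at 542 and 637 were as high as those at 125dG. HSP90B1, the chaperone GRP94, went from 687, 412 and 164 to 1234, 1011 and 924 (1.49 ± 0.35; limma, adjusted p = 0.0282), and 0.60 with 90dG replicate 1 alone. A further HSP90B1 probe set was at 0.57 and not called.

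SEC63, of the protein import channel, was higher too (0.94 ± 0.21; limma, adjusted p = 0.0273). HSPA5, the chaperone BiP, was lower, from 2070.0, 3031 and 2417 to 1588, 1114 and 1283 (-0.90 ± 0.18; limma, adjusted p = 0.0183), as was the prolyl isomerase PPIB (-0.60 ± 0.13; -0.24 on a further probe set, not called). The partners GRP94 and BiP thus had opposite signs, and the call held in 1 of the 6 fits that left out 1 array for HSP90B1 and in 2 for HSPA5.

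Splicing factors and hnRNP proteins had 6 lower and 3 higher calls in 61 (9.84% and 4.92%, against 2.61% and 2.56% of all genes), with a median of -0.06. Leaving out 1 array gave 0 to 4 lower and 0 to 2 higher calls, and without 125dG replicate 3 there were 0 of either; the median lay between -0.11 and 0.01. SNRPA, a protein of the U1 spliceosome particle, went from 1237, 1193 and 2198 to 724, 730.3 and 618 (-1.09 ± 0.21; limma, adjusted p = 0.0145), and the highest of the 6 arrays was 90dG replicate 3. HNRNPUL1, SF3A1, HNRNPL, HNRNPC and HNRNPU fell by 0.97 ± 0.20, 0.65 ± 0.15, 0.74 ± 0.20, 0.63 ± 0.16 and 0.45 ± 0.12. A further probe set of HNRNPL was also called lower (-0.77), and those of HNRNPC were at -0.62 (called), -0.24 and 0.54. Those of SF3A1, HNRNPUL1 and HNRNPU were at -0.43, -0.17 and 0.30 and not called.

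The higher ones were SRSF10, the kinase CLK4 and PNISR, an SR-related protein. PNISR had signals of 455, 828 and 730.1 and 1309, 1056 and 1044 (0.78 ± 0.21; limma, adjusted p = 0.0489), with 1.28 against 90dG replicate 1 alone, and of the further probe sets one was called at 1.29 and another was at 0.43 and not called. The further SRSF10 probe sets were at 0.82, 0.03 and 0.00, and 0 of them were called. The PNISR call held in 1 of the 6 fits that left out 1 array. In 12 of the 61 genes the 125dG and 160dG arrays all lay below the 60dG and 90dG arrays, against 3.9% of all genes.

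A further 3 genes of RNA biology are named after their values were seen, since their calls held with 90dG replicate 1 alone. TIA1, which binds U-rich RNA and forms stress granules, had signals of 523, 660.0 and 487 at 90dG and 1227, 974 and 1066 at 125dG (0.95 ± 0.16; limma, adjusted p = 0.01). MBNL1, a regulator of alternative splicing, went from 368, 496 and 529 to 890.1, 738 and 818 (0.80 ± 0.17; limma, adjusted p = 0.02). PPIG, a nuclear prolyl isomerase of SR proteins, went from 326, 578 and 473 to 942, 682 and 881 (0.86 ± 0.21; limma, adjusted p = 0.0323). Further probe sets were at 0.37 to 0.79 for TIA1 and at 0.43 for MBNL1, not called, and at 1.35 for PPIG, called. None of them passed from 60dG to 160dG (limma, adjusted p = 0.134, 0.212 and 0.896).

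Of 19 antioxidant genes 3 were lower and 1 was higher (15.8% and 5.26%, against 2.61% and 2.56% of all genes). NFE2L2, the transcription factor NRF2 that drives antioxidant genes, had signals of 858, 1045 and 1015 at 90dG and 1718, 1752 and 1630.1 at 125dG. The rise was 0.80 ± 0.14 (limma, adjusted p = 0.0137) and stayed between 0.71 and 0.85 over the 6 fits that left out 1 array, all of which called it. NFE2L2 was 1314 and 1395 at 60dG and 1966, 2049 and 2486 at 160dG, so 90dG was the lowest stage and 160dG the highest. PRDX6 and PRDX4, both peroxiredoxins, and thioredoxin TXN were lower (-0.78 ± 0.16, -0.50 ± 0.13 and -0.89 ± 0.23), and a further TXN probe set was at -0.01.

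**Figure D5:**
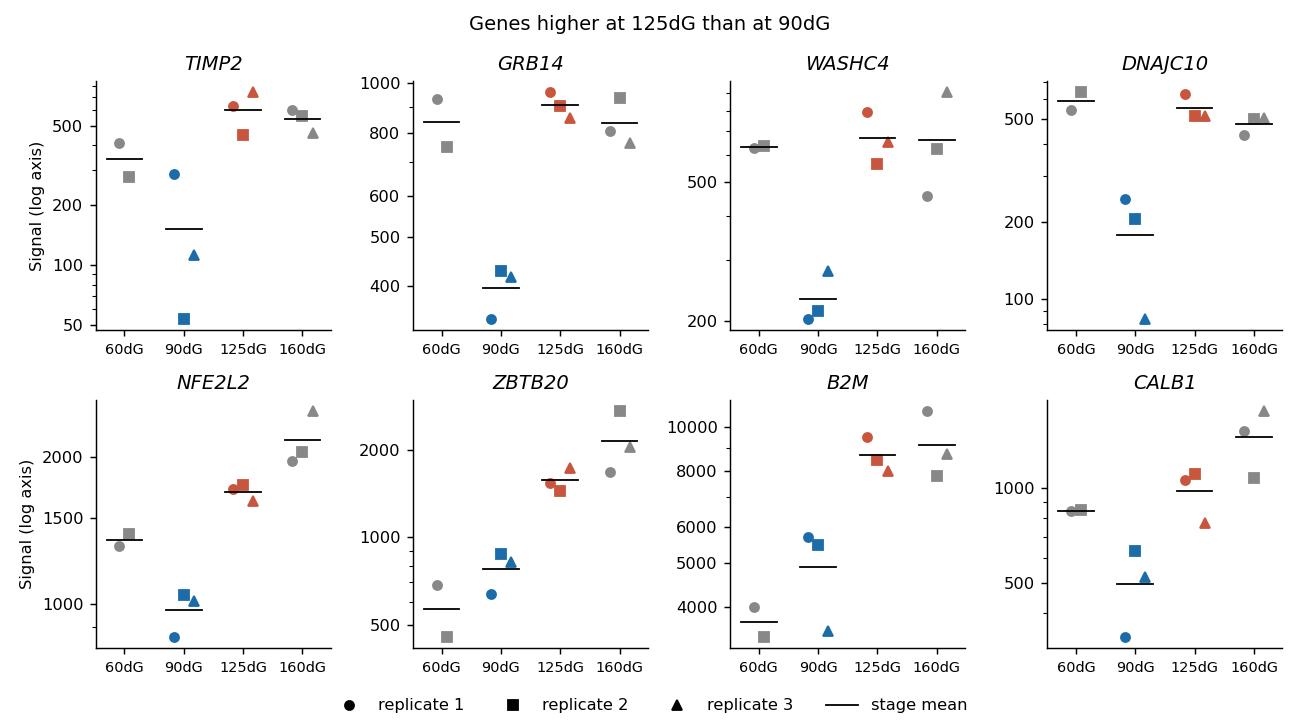
Signal on each fetal array, on log axes, of 8 genes higher at 125dG than at 90dG; symbols are replicates and bars stage means. GRB14, WASHC4 and DNAJC10 dip at 90dG only, while ZBTB20 and B2M are low at both 60dG and 90dG.

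Among the largest rises, WASHC4 and ELF1 were seen on all 3 90dG arrays. WASHC4, a subunit of the complex that builds actin on endosomes, had signals of 203, 214 and 278 at 90dG and 797, 564 and 653 at 125dG, with 628 and 635 at 60dG. The rise was 1.47 ± 0.23 (limma, adjusted p = 0.01), 1.63 with 90dG replicate 1 alone; of the further probe sets one was called at 0.99 and another was at 0.24 and not called. ELF1, an ETS family transcription factor, went from 118, 28.5 and 113 to 356, 276 and 293 (1.82 ± 0.35; limma, adjusted p = 0.0153).

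Other large rises were carried mostly by 90dG replicates 2 and 3. EXOC5, a subunit of the exocyst that delivers vesicles to the membrane, had signals of 285, 94.4 and 10.4 at 90dG and 435, 383 and 404 at 125dG (2.14 ± 0.57; limma, adjusted p = 0.0456). With 90dG replicate 1 alone its difference was 0.49. The same drop was seen for BLTP1, a lipid transfer protein (1.58 ± 0.34 and 0.65), OGA, which removes O-GlcNAc from proteins (1.51 ± 0.34 and 0.76), the kinase PRP4K (1.41 ± 0.37 and 0.50) and ARFGEF1, which activates ARF proteins of the Golgi (1.40 ± 0.27 and 0.64). Further probe sets were at 0.93 and -0.03 for OGA, at 0.17 and -0.04 for PRP4K and at 0.81 and -0.03 for ARFGEF1, and 0 of these were called.

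LIN7C, a polarity protein, SCYL2, of clathrin vesicles, YAF2, a Polycomb partner, and IL6ST, the shared receptor gp130, rose by 1.71 ± 0.35, 1.50 ± 0.29, 1.50 ± 0.37 and 1.42 ± 0.35. With 90dG replicate 1 alone these were 1.11, 1.15, 1.14 and 1.07. MAN1A1, a mannosidase of the Golgi, went from 306, 141 and 119.8 to 630.1, 484 and 529 (1.56 ± 0.29; limma, adjusted p = 0.0141) and also rose from 60dG to 160dG (1.06 ± 0.32; limma, adjusted p = 0.0479), but a further probe set was at -0.91 and not called.

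GRB14 and ZBTB20 are named after their values were seen. GRB14, an adaptor that inhibits the insulin receptor, had signals of 346, 429 and 417 at 90dG and 959.7, 902 and 855 at 125dG, with 930.4 and 749 at 60dG and 806, 936 and 765 at 160dG. All 3 90dG arrays were thus low against a level shared by the other stages, and the rise of 1.16 ± 0.16 (limma, adjusted p = 0.00401) was 1.35 with 90dG replicate 1 alone. ZBTB20, the transcription factor that represses AFP in liver, had 636, 876 and 824 at 90dG and 1535, 1446 and 1736 at 125dG (1.01 ± 0.21; limma, adjusted p = 0.0192). It continued a rise from 683 and 454 at 60dG to 1676, 2729 and 2041 at 160dG, further probe sets were at 1.17 and 1.05, both called, and at 0.89, not called, and its call held in 3 of the 6 fits that left out 1 array.

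Immune genes gave 1 call among 18 of the MHC and interferon list, higher (5.56%, against 2.56% of all genes). B2M, the light chain of MHC class I, had signals of 5699, 5470.3 and 3540.4 at 90dG and 9515, 8453 and 7996 at 125dG, a rise of 0.85 ± 0.18 (limma, adjusted p = 0.02), and 0.60 with 90dG replicate 1 alone. A further B2M probe set was at -0.63 and not called. Of 9 complement genes 1 was called, higher (11.1%, against 2.56% of all genes). It was CD46, which protects host cells from complement (0.87 ± 0.21, limma, adjusted p = 0.0359). A further CD46 probe set was at 0.17 and not called. Of 4 macrophage and leukocyte genes 0 were called (1 with an unadjusted p under 0.05 in limma). The summed signal of 21 macrophage and leukocyte genes was 2486 to 2605 at 90dG and 2008 to 2689 at 125dG.

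In the proximal tubule list 1 of 27 tested genes was called, lower (3.7%, against 2.61% of all genes), and the median was 0.11, whereas the same list had a median of 1.54 from 60dG to 160dG. AQP1, the water channel of the proximal tubule and thin limb, had signals of 259 and 299.6 at 60dG, 2156, 2249 and 1782 at 90dG and 1935, 2094 and 1608 at 125dG. Its signals were thus already high at 90dG, and the later difference was -0.13 ± 0.21 (limma, adjusted p = 0.729).

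The 1 proximal tubule call was a fall. PCK1, the rate-limiting enzyme of gluconeogenesis, had signals of 392, 587 and 451 at 90dG and 251, 236 and 218 at 125dG, without overlap (-0.96 ± 0.20; limma, adjusted p = 0.02). It was 127 and 108 at 60dG and 564, 388 and 497 at 160dG, so 125dG was a low between higher stages, and the difference from 60dG to 160dG was 1.89 ± 0.22. The call held in 2 of the 6 fits that left out 1 array.

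Several tubule genes had larger signals at 125dG without passing. CXCL14, a chemokine of the maturing tubule, went from 666, 1311 and 659 to 1931, 1404 and 1575 (0.95 ± 0.34; limma, adjusted p = 0.108), and the peptidase MME from 1235, 1443 and 1226 to 2008, 1858 and 2090.1 (0.61 ± 0.18; limma, adjusted p = 0.0614). GATM, which makes guanidinoacetate for creatine, was at 1.02 ± 0.48 (limma, adjusted p = 0.212), and a further probe set was called at 1.47 (limma over all probe sets, adjusted p = 0.0247). The cystine transporter subunit SLC3A1 had a difference of 1.06 ± 0.42 (limma, adjusted p = 0.145), and of 0.24 with 90dG replicate 1 alone. Fatty acid oxidation had 0 calls in 29 genes with a median of 0.06, and drug and xenobiotic metabolism 0 in 23 (7 and 4 with an unadjusted p under 0.05 in limma).

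In the thick limb and distal tubule list 1 of 11 genes was called, higher (9.09%, against 2.56% of all genes), and the median was 0.22. CALB1, the calcium-buffering calbindin of the distal tubule, had signals of 335, 628 and 522 at 90dG and 1059, 1106 and 771 at 125dG. The rise was 0.99 ± 0.24 (limma, adjusted p = 0.0335), and 1.48 with 90dG replicate 1 alone. The CALB1 call held in 1 of the 6 fits that left out 1 array. A further CALB1 probe set was at 0.39 and not called, and the 60dG arrays at 843 and 849 were above those of 90dG. SLC12A1, the salt cotransporter of the thick limb, had overlapping signals of 506, 723 and 568 and 818, 974 and 553 before reaching 2471, 1559 and 1371 at 160dG. PTGER3, a prostaglandin receptor of this segment, did not overlap between the stages but missed the threshold (0.78 ± 0.22; limma, adjusted p = 0.0612), as did further probe sets at 0.64 and 0.39.

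Of 7 collecting duct genes 1 was called, higher (14.3%, against 2.56% of all genes). It was TFCP2L1, a transcription factor of that duct (1.06 ± 0.24, limma, adjusted p = 0.0268). The podocyte list had 0 calls in 13 genes (3 with an unadjusted p under 0.05 in limma) and a median of 0.05. COL4A3, a collagen chain of the mature glomerular basement membrane, went from 409.5, 609 and 587 to 1111, 972 and 1175 without overlap, missed the threshold on the probe set used (1.02 ± 0.30; limma, adjusted p = 0.0641) and was called on further probe sets at 1.59 and 1.48 (limma over all probe sets, adjusted p = 0.00832 for each). HTRA1, a secreted protease, was at 0.62 ± 0.20 (limma, adjusted p = 0.0825), and PODXL, the podocyte surface protein, at -0.42 ± 0.26 (limma, adjusted p = 0.341).

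Endothelial genes had 0 calls in 12, mural, mesangial and renin cell genes 0 in 10 and prostaglandin and renin-angiotensin genes 0 in 15, with 0, 2 and 6 at an unadjusted p under 0.05 in limma. PTGDS, a prostaglandin D synthase, at 0.86 ± 0.24 (limma, adjusted p = 0.0555) was called on further probe sets at 0.90 and 1.03, and the median of its list was 0.30. In the BMP and TGF-beta list 1 of 27 genes was called, higher (3.7%, against 2.56% of all genes). It was SMAD2, a transducer of TGF-beta and activin (0.71 ± 0.17, limma, adjusted p = 0.0323). The SMAD2 difference was 0.36 with 90dG replicate 1 alone, and a further probe set was at 0.68 and not called. Immediate early genes had 0 calls in 13, hypoxia and glycolysis genes 0 in 25 and metallothioneins 0 in 9, with 2, 3 and 0 at an unadjusted p under 0.05 in limma.

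Of 30 tested chromatin genes 1 was lower and 1 higher (3.33% each way), near the 2.61% and 2.56% of all genes, and the list median was -0.15. The histone variant gene H2AZ1, linked to proliferation, fell from 4755, 4556 and 5019 to 3583, 3244 and 2844 (-0.57 ± 0.13; limma, adjusted p = 0.0263), with 60dG at 6259.7 and 5233 and 160dG at 2422, 2608 and 2421. HMGN1, a nucleosome-binding protein, was higher (0.76 ± 0.20; limma, adjusted p = 0.044) although it fell from 60dG to 160dG by 1.11 ± 0.22; a further probe set was at -0.48, and 0 of the 6 fits that left out 1 array kept the call.

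UTY, a Y-linked demethylase gene, was higher at 125dG, from 165, 133 and 108 to 386, 316 and 324 (1.25 ± 0.21; limma, adjusted p = 0.01), while RPS4Y1, also Y-linked, was at -0.16 ± 0.88 (limma, adjusted p = 0.939). The SE of RPS4Y1 takes in the 60dG arrays, at 90.2 and 5138. XIST was 4589.4 and 138.7 on those arrays. At 90dG UTY lay below every other fetal array, including 60dG replicate 1 with its low RPS4Y1 and high XIST. The UTY probe set thus did not follow RPS4Y1 and XIST, and whether it reads the Y-linked transcript alone was not tested. GAPDH, often used as a reference gene, was at -0.34 ± 0.18 on the probe set used (limma, adjusted p = 0.261), and further GAPDH probe sets were called lower at -0.87 and -0.75.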

How the data were processed

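Per the labels' protocols, biotin-labelled cRNA was made from total RNA of whole kidney. The deposited values are linear probe set signal intensities that the authors made with GCOS, per the submitters' processing notes. How GCOS was set is not given in the sources used here. Trimmed means (2% at each end) differed by at most 1.02 times between the fetal arrays, so no rescaling was done. Of 16186 probe sets, 14068 have 1 gene symbol in the platform annotation, 735 several and 1340 besides 43 controls none; these last groups were left unnamed.

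The annotation names 9580 genes, each read through its brightest probe set by mean log2 value. A gene was tested if that mean passed 7.60, the median over probe sets (signal 178), which 5278 did. A filter on the mean over all fetal arrays can drop genes high at 1 stage. Values were log2(signal + 16), so differences of dim genes are understated. limma 3.58.1 (lmFit, eBayes with trend) in R 4.3.3 fitted stage over all 11 fetal arrays, with Benjamini-Hochberg adjustment over 5278 genes; it was tested on simulated data. Plots used matplotlib 3.10.9. The members of the comparison and the 47 gene lists were chosen with earlier results of these data known. Genes were named by rule: the 15 largest differences each way among called genes without overlap, up to 5 members of each list with the smallest p and every called member, a fixed set of 24 genes, and sex-linked genes; not all are described. Alternatives were other pseudocounts (1, 64) and filters, quantile normalization, no trend, array weights, the 6 arrays alone, a replicate block, the GAPDH ratio as covariate, all probe sets, and leaving out arrays.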

Additional observations from a re-analysis of the deposited data

How the results depend on the processing

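The 273 calls (135 higher, 138 lower) became 171 (88 and 83) with no filter, 155 (87 and 68) without the intensity trend, 481 (239 and 242) with array weights, 143 (68 and 75) on the 6 arrays alone and 546 (306 and 240) over all probe sets. With the GAPDH ratio as covariate they were 33 (20 and 13), and with 90dG replicates 2 and 3 left out together 32 (24 and 8). Quantile normalization gave 84 lower calls. Leaving out each array in turn gave 34 to 441 calls, 16 to 244 higher and 18 to 197 lower; the fewest came without 125dG replicate 3 and the most without 90dG replicate 1, and without either 60dG array there were 170 or 174. The share of called genes with the same sign from 60dG to 160dG, 72.2%, ranged from 65.1% to 81% when an array of these stages was left out. Pseudocounts of 1 and 64 gave 267 and 281 calls, and a filter at the 0.75 quantile 233. The replicate numbers did not pair the samples: arrays of the same number had correlations of -0.08, -0.11 and -0.08 in their deviations, and with a replicate block 198 genes were called, 107 higher and 91 lower. None of the 273 called genes changed sign in these settings, of which the 0.75 quantile filter tested 187. For genes whose arrays do not overlap, most of these settings could not change the sign, so this is no test of stability. The cause of these shifts was not tested. Signals near the background limit what can be read of dim genes.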
